A study of Mus musculus with 3 samples.

Results

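Germline genes that somatic cells keep silent were examined for 5-methylcytosine (5mC) enrichment in mouse cardiomyocytes. The list holds 40 genes of the piRNA pathway, meiosis, germ cell RNA control, germ cell transcription and the gamete surface, out of 21883 protein-coding genes in RefSeq for mm10. A peak was given to a gene if any base of it fell within 1000 bp of where the annotated gene starts or ends, or if the peak's midpoint was inside the gene. By this rule the 40 genes held 99 of 162107 TAC peaks and 93 of 135886 Sham peaks.

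The TAC library came from cardiomyocytes of mice after 1 week of pressure overload (TAC, transverse aortic constriction), and the Sham library from cardiomyocytes of Sham mice. Both used male C57Bl6/J mice aged 8 weeks and the same antibody supplier, and an Input library without antibody served the authors' peak calling. Each group has 1 library, so no value below has a replicate check and no test of TAC against Sham was possible. The sources used here do not give the number of animals behind a library. Pressure overload cannot be told apart from any other difference between the 2 libraries, depth and the cell isolate included.

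Methylated DNA immunoprecipitation with sequencing (MeDIP-seq) pulls down DNA fragments that carry 5mC, and a peak marks enrichment over input, not a methylation level. The TAC library had 14658177 tags with 34.67% in peaks and the Sham library 12585289 tags with 29.88% in peaks, per the file headers. The lists carry no signal per peak (the score is 1 throughout), so a peak is described here by its width and by its list position, the percent of rows passed when the list reaches it. Rows early in the list held wider peaks, with a median of 891 bp in the first 10% of the TAC list and 958 bp in the first 10% of the Sham list, against 501 bp in the last 10% of both. Most peaks, 60.7% in TAC and 59.6% in Sham, were exactly 501 bp wide. Since the lists differ in length, positions in them rank peaks within a library and do not measure a change.

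DNA methylation of CpG-rich promoters is rare in somatic cells, and germline genes are a known exception. In the early embryo the de novo methyltransferases methylate the promoters of a set of germline genes, and E2F6 and the MGA-MAX complex, which binds the E-box CACGTG, take part in their silencing. In germ cells the same promoters lose their methylation and the genes are used for transposon control by piRNAs, for meiosis and for gamete formation. MeDIP recovers dense clusters of methylated CpGs best, so CpG-rich methylated promoters are well suited to it. Expression was not measured in this series, so that the genes were silent in these cells was not checked.

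RefSeq promoter sequences (GRCm38.p6) were available for 35 of the 40 genes, and each covers 250 bases before and 50 bases after a gene start. Tdrd6, Piwil2, Tex15, Spo11 and Dnd1 had no entry. A few promoters that mark the contrasts in coverage are printed 5′ to 3′ along the gene with CpG sites in capitals. Dazl, Sycp1 and Sycp3 had the earliest promoter peaks of the list in both libraries.
Dazl, chr17:50293571-50293870, minus strand: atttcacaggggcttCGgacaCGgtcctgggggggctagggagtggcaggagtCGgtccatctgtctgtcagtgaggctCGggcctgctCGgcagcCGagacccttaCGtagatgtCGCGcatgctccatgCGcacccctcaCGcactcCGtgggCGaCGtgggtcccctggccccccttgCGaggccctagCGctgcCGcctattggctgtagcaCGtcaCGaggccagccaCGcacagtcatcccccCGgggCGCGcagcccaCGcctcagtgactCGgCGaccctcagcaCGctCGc
Sycp1, chr3:102936051-102936350, minus strand: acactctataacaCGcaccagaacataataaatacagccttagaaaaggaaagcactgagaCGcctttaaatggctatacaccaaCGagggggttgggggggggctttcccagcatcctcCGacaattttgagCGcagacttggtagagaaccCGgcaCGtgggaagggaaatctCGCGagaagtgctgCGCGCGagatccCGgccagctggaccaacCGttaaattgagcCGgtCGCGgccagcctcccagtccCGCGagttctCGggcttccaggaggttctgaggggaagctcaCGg
Sycp3, chr10:88459337-88459636, plus strand: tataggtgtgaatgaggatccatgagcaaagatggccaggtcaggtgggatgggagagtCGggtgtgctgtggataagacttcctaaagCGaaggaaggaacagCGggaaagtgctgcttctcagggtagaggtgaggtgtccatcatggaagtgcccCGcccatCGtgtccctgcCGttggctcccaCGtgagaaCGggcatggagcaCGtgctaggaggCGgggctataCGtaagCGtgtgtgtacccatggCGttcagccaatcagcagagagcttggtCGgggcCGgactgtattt
Tex19.1 and Dpep3 were covered over the start in Sham and not in TAC.
Tex19.1, chr11:121145893-121146192, plus strand: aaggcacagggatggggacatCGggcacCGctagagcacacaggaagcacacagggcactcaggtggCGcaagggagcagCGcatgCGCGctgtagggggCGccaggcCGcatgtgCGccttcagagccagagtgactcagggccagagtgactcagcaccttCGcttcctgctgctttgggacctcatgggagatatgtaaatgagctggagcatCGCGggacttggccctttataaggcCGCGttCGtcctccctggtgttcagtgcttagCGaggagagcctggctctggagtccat
Dpep3, chr8:105979370-105979669, minus strand: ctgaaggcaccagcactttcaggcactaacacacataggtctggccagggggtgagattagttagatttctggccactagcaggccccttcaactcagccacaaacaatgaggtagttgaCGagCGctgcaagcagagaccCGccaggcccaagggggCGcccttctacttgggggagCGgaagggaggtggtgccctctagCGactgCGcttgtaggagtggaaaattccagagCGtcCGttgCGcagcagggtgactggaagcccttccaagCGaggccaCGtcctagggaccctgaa
Smc1b and Nanos2 held no peak by the rule in either library, the first with many CpGs and the second with none.
Smc1b, chr15:85131908-85132207, minus strand: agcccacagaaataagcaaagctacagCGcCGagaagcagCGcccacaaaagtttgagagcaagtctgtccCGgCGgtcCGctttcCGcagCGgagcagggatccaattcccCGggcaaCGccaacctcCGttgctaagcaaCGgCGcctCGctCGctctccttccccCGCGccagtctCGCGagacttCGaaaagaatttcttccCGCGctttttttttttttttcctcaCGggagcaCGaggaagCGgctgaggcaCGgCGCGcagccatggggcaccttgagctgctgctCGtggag
Nanos2, chr7:18987274-18987573, plus strand: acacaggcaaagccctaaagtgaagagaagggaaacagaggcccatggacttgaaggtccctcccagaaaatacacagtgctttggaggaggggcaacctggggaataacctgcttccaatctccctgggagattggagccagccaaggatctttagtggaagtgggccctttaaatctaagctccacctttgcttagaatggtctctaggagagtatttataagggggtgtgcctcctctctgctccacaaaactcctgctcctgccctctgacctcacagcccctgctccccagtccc
The Dazl window holds 28 CpGs, Sycp1 21 and Sycp3 15. Tex19.1 holds 16 and Dpep3 12. Smc1b has 29 CpGs, as many as the most CpG-rich covered promoters other than Ddx4, which has 38, and Nanos2 has 0.

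A promoter was called covered when a peak overlapped its 300-base window by at least 1 bp. Of the 35 promoters, 17 (48.6%, exact 95% binomial interval 31.4 to 66.0) were covered in TAC and 23 (65.7%, 47.8 to 80.9) in Sham. Among the 17491 protein-coding genes with a promoter sequence, the shares were 3.85% in TAC and 3.60% in Sham. All 17 promoters covered in TAC were also covered in Sham, and 2.10% of all genes were covered in both. The remaining 6 Sham promoters (17.1%), those of Asz1, Piwil4, Tex19.1, Boll, Rpl10l and Dpep3, had no TAC peak over the window. No member was covered in TAC alone. Over all genes 1.75% were covered in TAC alone and 1.50% in Sham alone. Of the promoters covered in Sham, 6 of 23 among members and 262 of 630 over all genes were covered in Sham alone. Of those covered in TAC, 0 of 17 among members and 306 of 674 over all genes were covered in TAC alone. Neither library covered 12 member promoters (34.3%), against 94.6% of all genes. Intervals cover counting error only. The members were chosen with earlier results of these data known, and the part of that choice in these shares was not tested.

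**Figure D1:**
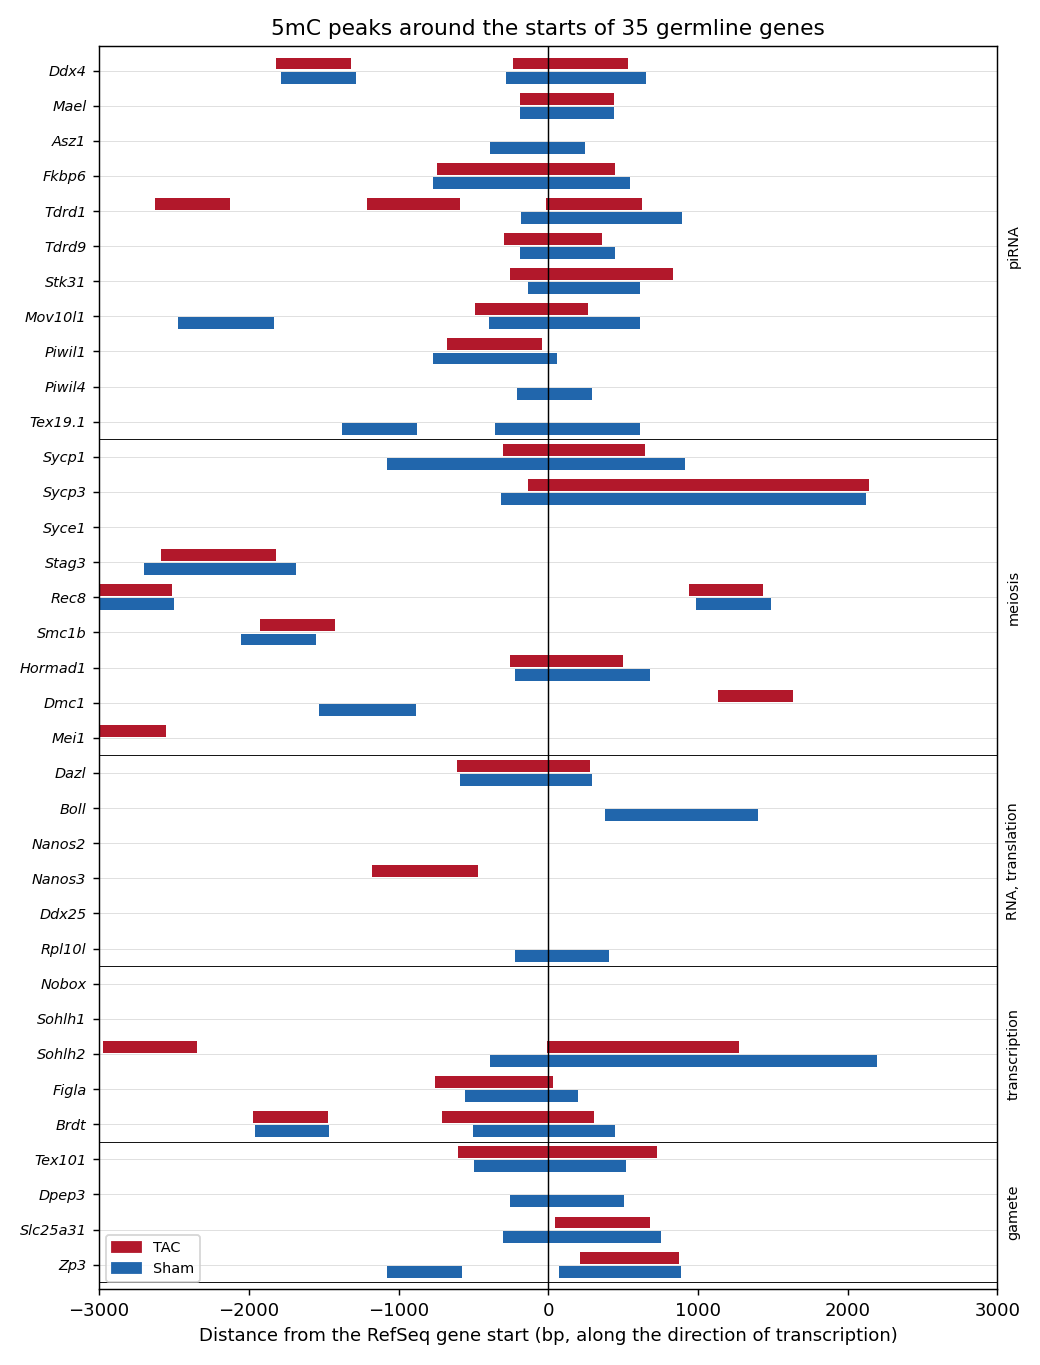
Peaks within 3000 bp of the RefSeq gene start of 35 germline genes, with distance in bp along the direction of transcription on the x axis, TAC bars above Sham bars, and genes grouped by role on the y axis. Where a gene has several listed starts the first is used. TAC and Sham bars lie over the start together in most piRNA genes, Asz1, Piwil4, Tex19.1, Boll, Rpl10l and Dpep3 have Sham bars alone, and Mei1 and Nanos3 have TAC bars alone.

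Having been chosen for meeting a window at the start, and being wider than it, most promoter peaks span the start. Of the 17 TAC promoter peaks 15 spanned the first-listed start, as did 22 of the 23 Sham promoter peaks. Their median edges lay 297 bp upstream and 496 bp downstream in TAC, and 318 bp upstream and 544 bp downstream in Sham. The TAC exceptions were Piwil1, whose peak ended 44 bp before the start, and Slc25a31, whose peak began 48 bp after it and so met only the last bases of the window. The Sham exception was Boll, where the peak lay 382 to 1404 bp downstream of the first-listed start and over a second one.

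The listed genes of the piRNA pathway, which guides silencing of transposons in germ cells, were covered over the promoter window in most cases. Of the 11 with a promoter sequence, 8 were covered in TAC and 11 in Sham, against 3.85% and 3.60% of all genes. Of 12 piRNA pathway genes outside the list, 2 were covered in TAC and 3 in Sham. By the rule at annotated ends, 8 of the 14 listed genes were covered in TAC and 12 in Sham. The shares of all genes by that rule were 24.5% and 23.6%. Ddx4, the germ cell RNA helicase also called VASA, had a promoter peak of 769 bp at list position 36.0% in TAC and of 936 bp at 18.1% in Sham. It also had a second, upstream peak in each library, of 501 bp in both, at list position 18.3% in TAC and 44.6% in Sham. The start of Mael, which acts in piRNA-directed transposon silencing, lay under nearly identical peaks of 627 bp in TAC and 626 bp in Sham. Its list position was 40.6% in TAC and 17.6% in Sham.

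Mov10l1 encodes a helicase that feeds precursors into piRNA production. Its promoter peak was 756 bp wide at position 17.7% in TAC and 1008 bp wide at 2.75% in Sham. The Tudor domain genes, whose products bind modified PIWI proteins, included Tdrd1 and Tdrd9, both covered in both libraries. Tdrd1 had a peak of 644 bp at 10.2% in TAC and of 1081 bp at 8.70% in Sham, and a separate upstream TAC peak of 626 bp with no Sham counterpart. Tdrd9 had peaks of 654 bp at 47.2% in TAC and 630 bp at 41.5% in Sham. Tdrd6, whose strand the tables used here do not give, had a TAC peak of 859 bp at its lower-coordinate end that overlapped a Sham peak lying outside the 1000 bp, and at the other end a peak of 708 bp in TAC and 501 bp in Sham. Inside it a shared peak measured 1213 bp at 32.7% in TAC and 1350 bp at 7.65% in Sham. Stk31, a kinase-like Tudor protein gene, had a promoter peak of 1085 bp in TAC and 754 bp in Sham.

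PIWI genes encode the proteins that bind piRNAs. Piwil1 was covered in both libraries, by 633 bp in TAC and 832 bp in Sham. At Piwil4, the start had a 501 bp peak at position 63.7% in Sham, and the nearest TAC peak was 5082 bp away. Piwil2 held 3 peaks in TAC and 5 in Sham, all in its body, and Tex15, which acts with nuclear PIWI, held 1 in each, in its body and not shared.

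Fkbp6, a co-chaperone gene of the piRNA pathway, shows how the annotation sets a call. By the 1000 bp rule at annotated ends it was covered in Sham and not in TAC, because the annotated gene reaches 135351809 on chromosome 5 while the listed start is at 135350044. Over that start, TAC had a peak of 1189 bp (135349598 to 135350786, position 8.93%) and Sham a peak of 1313 bp (135349500 to 135350812, position 3.63%). The TAC peak reached 742 bp upstream of the start and the Sham peak 768 bp, and that small difference decided the end call.

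Asz1 and Tex19.1 had no such near miss. Asz1, needed for piRNA production at germ cell mitochondria, had a Sham peak of 636 bp over its start at position 23.4%, and the nearest TAC peak was 14040 bp away. Tex19.1, a germ cell gene that restrains transposons, had a Sham peak of 967 bp from 354 bp upstream to 612 bp downstream of its start, at position 13.6%. A second Sham peak of 501 bp lay further upstream, and the nearest TAC peak was 11352 bp away.

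In the meiotic group 3 of 9 promoters were covered, and the same 3 in TAC and in Sham. Sycp3, encoding the lateral element of the synaptonemal complex, had a wide promoter peak, 2280 bp in TAC at position 1.08% and 2439 bp in Sham at 0.820%. Sycp1, encoding the transverse filament, had 948 bp in TAC at 3.03% and 1992 bp in Sham at 0.888%. The Sham peak of Sycp1 reached 1079 bp upstream of the start and the TAC peak 300 bp. Hormad1, a gene of the meiotic chromosome axis, had 754 bp at 10.9% in TAC and 902 bp at 8.48% in Sham.

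The meiotic cohesin genes Stag3, Rec8 and Smc1b were not covered over their starts in either library. Stag3, with 30 CpGs in its window, had its nearest peaks 1821 bp upstream of the listed start in TAC and 1683 bp upstream in Sham. The peaks there were 766 bp and 1017 bp wide in those libraries. That start, at 138280509 on chromosome 5, lies inside the annotated gene, which begins at 138272514, so both are body peaks. Rec8 had a 501 bp peak in each library inside the gene, beginning 937 bp after the start in TAC and 990 bp in Sham, at position 50.2% in TAC and 94.9% in Sham. At Smc1b the nearest peak, 501 bp wide, was 1426 bp upstream in TAC and 1552 bp upstream in Sham, outside the rule's 1000 bp. Dmc1, the meiotic recombinase gene, had a Sham peak of 649 bp from 1531 to 883 bp upstream of its listed start, close enough to count at a gene end, and no TAC peak there. Syce1, of the central element, had a TAC peak of 501 bp at its 3′ end at position 85.1% and no Sham peak by the rule. Spo11, which cuts DNA to start recombination, had a peak near its lower-coordinate end of 923 bp in TAC and 627 bp in Sham, and its strand is not in the tables used here. Mei1, also needed for those breaks, held 8 TAC and 4 Sham peaks, none at an end.

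Dazl, an RNA-binding regulator of translation and a classic target of somatic promoter methylation, had the earliest peak of any member in both libraries. It was 885 bp wide in TAC (50293344 to 50294228 on chromosome 17) at list position 0.548%, and 885 bp wide in Sham (50293327 to 50294211) at 0.402%. The TAC peak began 608 bp upstream of the start and the Sham peak 591 bp upstream, so the 2 intervals nearly coincide. Its relative Boll was covered at the start in Sham alone, by 1023 bp at 28.1%, while TAC had a 501 bp peak at the 3′ end. Rpl10l, a retrogene copy of a ribosomal protein gene, had a Sham peak of 633 bp from 225 bp upstream to 407 bp downstream of its start, and its nearest TAC peak was 8123 bp away. As a retrocopy it resembles its parent gene, and the sources used here do not state how reads with several matches were treated.

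Among the other RNA regulators, Dnd1, which protects germ cell precursors, had a peak at its higher-coordinate end of 857 bp in TAC and 798 bp in Sham, and it overlaps Wdr55. At its other end Sham had a peak of 501 bp with no TAC partner. Nanos3, another precursor gene, had a TAC peak of 704 bp from 1175 to 472 bp upstream of its start and no Sham peak by the rule. Nanos2, which maintains male germline stem cells, had no peak by the rule in either library, and its nearest peaks were 6107 bp away in TAC and 6104 bp in Sham. Ddx25, a testis RNA helicase gene, has 41 CpGs in its window, the most of the list, and was not covered there in either library. Its body held a shared peak of 627 bp in TAC and 501 bp in Sham.

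Of 5 germ cell transcription and chromatin genes, 3 were covered over the start in both libraries. Sohlh2, a helix-loop-helix factor of early germ cells, had 1283 bp at position 18.6% in TAC and 2581 bp at 3.61% in Sham, the widest Sham peak at a member's end. Figla, an oocyte factor, had 793 bp at 39.1% in TAC and 754 bp at 21.3% in Sham. Brdt, the testis bromodomain gene, had 1015 bp at 12.5% in TAC and 948 bp at 22.2% in Sham. Sohlh1 had no peak by the rule in either library. Nobox, an oocyte homeobox gene, was covered in TAC at its 3′ end alone, by a peak of 814 bp that overlapped a Sham peak lying outside the 1000 bp.

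Of the gamete genes, Tex101, encoding a germ cell surface protein, had 1333 bp in TAC and 1022 bp in Sham, at list position 14.0% in both. Slc25a31, the ADP/ATP carrier gene of male germ cells, had 632 bp at 40.8% in TAC and 1058 bp at 9.72% in Sham. Dpep3, a testis dipeptidase gene, had a Sham peak of 758 bp at 15.8% over its start, and the nearest TAC peak was 12224 bp away. Zp3, encoding a zona pellucida protein of the egg coat, had peaks just inside the gene of 659 bp in TAC and 814 bp in Sham. The TAC peak began 212 bp after the start and the Sham peak 71 bp after it, both past the 50 bases that the window holds there, so the promoter counted as covered in neither. Sham had a further upstream peak of 501 bp with no TAC partner, and TAC a peak of 501 bp at the 3′ end with no Sham partner.

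With the rule at annotated ends, 24 of 40 members (60.0%) were covered in TAC and 28 (70.0%) in Sham, against 24.5% and 23.6% of all protein-coding genes in those libraries. In both libraries 21 (52.5%) were covered, against 16.0% of all genes. TAC alone covered Syce1, Nanos3 and Nobox, 7.50% of members against a background of 8.60%. Sham alone covered Asz1, Fkbp6, Piwil4, Tex19.1, Dmc1, Rpl10l and Dpep3, 17.5% against 7.68%. These shares also depend on how often members are covered at all. Of those covered in Sham, 7 of 28 members and 1680 of 5171 of all genes were covered in Sham alone. Of those covered in TAC, 3 of 24 members and 1881 of 5372 of all genes were covered in TAC alone. Of the TAC-only calls Syce1 and Nobox were at 3′ ends, and Nanos3 was upstream of the promoter window. Of the Sham-only calls 5 lay over a promoter window that TAC left uncovered. Neither library covered an end of 9 members (22.5%, against 67.8% of all genes), which were Piwil2, Tex15, Stag3, Rec8, Smc1b, Mei1, Nanos2, Ddx25 and Sohlh1. Another protein-coding gene has an end within 1000 bp of an end of 7 members, and 5 members overlap another gene, so an end peak there cannot be assigned to 1 gene. The first group is Fkbp6, Mov10l1, Stag3, Rec8, Smc1b, Dnd1 and Ddx25, and the second Tdrd9, Sycp3, Stag3, Smc1b and Dnd1.

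Around the starts, peaks covered fewer bases in TAC than in Sham in most members. Counting bases up to 1000 bp from the first-listed start in both directions, 27 members had any coverage, with less in TAC for 18, more for 8 and the same for 1. Summed over these genes, peaks covered 16530 bp in TAC and 22973 bp in Sham, a ratio of 0.720. Over all genes with such coverage the ratio was 1.08, and TAC covered less in 42.7% of 2914 genes. For genes with 10 or more CpGs in the window the ratio was 1.10 and the share with less in TAC 43.5%. The member sums include genes covered there in 1 library only. In Sham these were Tex19.1 (1089 bp), Dpep3 (758), Asz1 (636), Rpl10l (633), Boll (619), Piwil4 (501) and Dmc1 (118). In TAC it was Nanos3 (529 bp). Where both libraries covered the promoter, the member peaks had a median width of 793 bp in TAC and 948 bp in Sham, with TAC narrower in 10 of 17, wider in 6 and equal in 1. Over the 368 genes covered in both, the medians were 630 bp and 632 bp in those libraries, and TAC was narrower in 37.8% and wider in 34.2%. TAC was the more deeply sequenced library, with the higher tag threshold per peak (12, against 11 in Sham), and the part of depth and threshold in these widths was not tested.

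**Figure D2:**
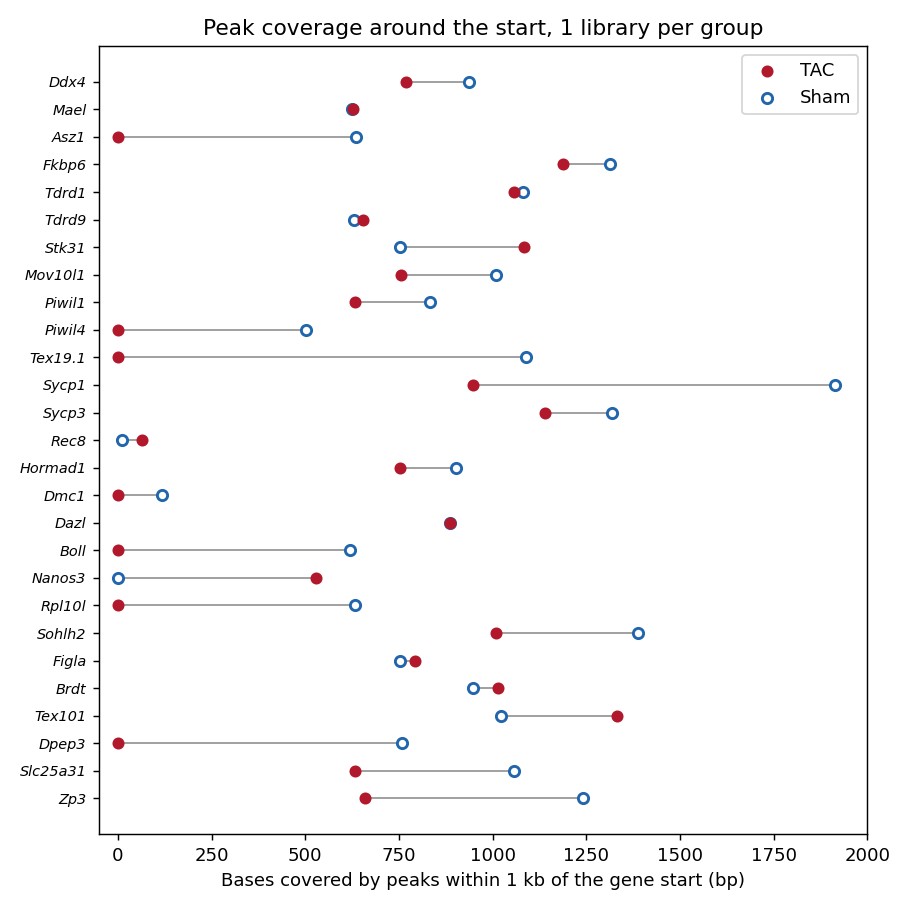
Bases covered by peaks within 1 kb of the gene start (x axis, in bp) for the 27 members with any coverage there (y axis), with TAC as filled and Sham as open circles. Asz1, Piwil4, Tex19.1, Boll, Rpl10l, Dpep3 and Dmc1 are at 0 in TAC, Nanos3 is at 0 in Sham, and Stk31 and Tex101 have more in TAC.

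Promoter peaks of the members stood earlier in the lists, by their median, than their other peaks. Of 17 TAC promoter peaks 11 lay in the first 20% of the list, and of 23 Sham promoter peaks 15 did. The median position was 14.0% in each, though the Sham set also holds the promoters covered in Sham alone. For the 17 promoters covered in both libraries the medians were 14.0% in TAC and 8.70% in Sham. TAC was later in its list for 15 of these 17 (88.2%), against 58.2% of the 368 genes covered in both. For the 185 of those genes with 10 or more CpGs, as all 17 members have, the share was 62.7%. Positions rank peaks within a library, so these shares do not measure a change. Away from the promoter windows the 35 genes held 69 TAC peaks with a median position of 50.2% and 56 Sham peaks with a median of 59.2%. Every TAC promoter peak, 17 of 17 (exact 95% interval 80.5% to 100%), overlapped a Sham peak, and 17 of 23 Sham promoter peaks (73.9%, 51.6 to 89.8) overlapped a TAC peak. Over the promoters of all protein-coding genes, 431 of 676 TAC peaks (63.8%) and 436 of 629 Sham peaks (69.3%) were shared. Sharing is common early in the lists for any promoter, with 94 of 97 TAC promoter peaks shared in the first 10% of rows and 69 of 81 between 10% and 20%. Those 2 ranges together held 11 of the 17 member peaks. Away from promoters, 38 of 69 TAC peaks (55.1%, 42.6 to 67.1) and 37 of 56 Sham peaks (66.1%, 52.2 to 78.2) were shared, close to the 55.6% of all TAC peaks and 66.1% of all Sham peaks.

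**Figure D3:**
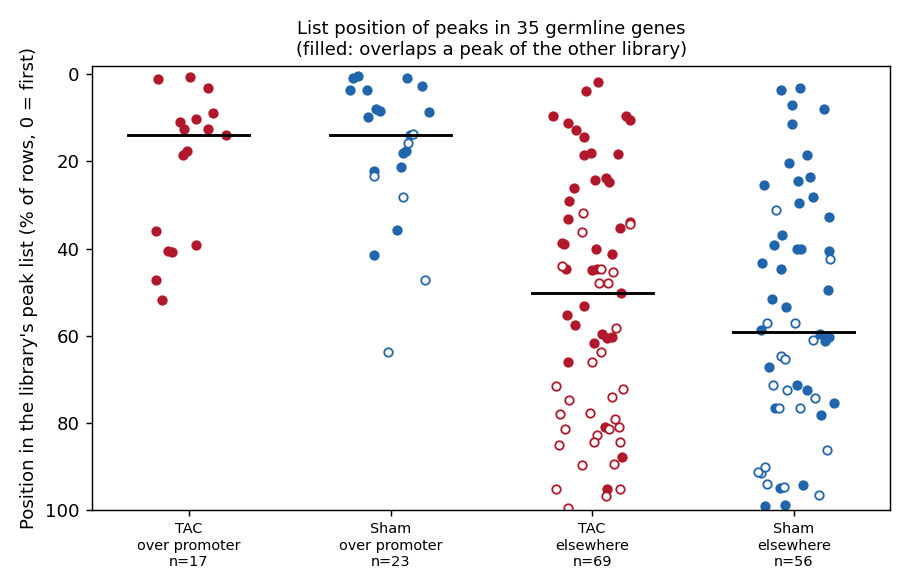
List position of each peak (y axis, percent of rows, 0 = first) for the 35 members with a promoter sequence, split into peaks over the promoter window and peaks elsewhere in TAC and in Sham; filled points overlap a peak of the other library and bars mark medians. The medians are 14.0% over promoters in both libraries (17 TAC and 23 Sham peaks), and 50.2% in TAC and 59.2% in Sham elsewhere.

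The unshared Sham promoter peaks were not all late in the list. Those of Tex19.1 (13.6%) and Dpep3 (15.8%) lay between 10% and 20%, where 66 of 80 Sham peaks over any promoter overlapped a TAC peak. Asz1 (23.4%) and Boll (28.1%) lay between 20% and 30%, where 59 of 69 Sham promoter peaks were shared. Rpl10l (47.3%) and Piwil4 (63.7%) lay further down, where 45 of 63 Sham promoter peaks were shared between 40% and 50% and 25 of 61 between 60% and 70%.

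Over whole genes the peak numbers of the libraries were close. The members held 99 TAC and 93 Sham peaks, a ratio of 1.06 with an exact 95% interval of 0.794 to 1.43 for counting error, which holds the ratio of all peaks, 1.19. That ratio includes peaks outside genes. By the members' rule, all protein-coding genes held 72354 TAC and 67366 Sham peaks, summed gene by gene. TAC had more peaks in 13 members, fewer in 10 and as many in 17. Away from promoter windows the ratio was 1.23 (0.854 to 1.79). Tdrd9 held the most peaks in each library, 9 in TAC and 10 in Sham. Mei1 held 8 in TAC and 4 in Sham, Boll 7 in TAC and 5 in Sham, and Tdrd1 5 in TAC and 7 in Sham. Of all member peaks, 64.6% in TAC (54.4 to 74.0) and 66.7% in Sham (56.1 to 76.1) were shared. Over all peaks the shares were 55.6% in TAC and 66.1% in Sham, both within the members' intervals.

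Away from promoter windows, 11 TAC peaks and 6 Sham peaks lay in the first 20% of their list. In Tdrd9 a body peak was 796 bp wide at position 1.74% in TAC and 626 bp wide at 3.06% in Sham, beginning 75871 bp after the start in TAC and 76055 bp in Sham. Mael had a peak near its 3′ end of 1828 bp at 3.88% in TAC and 976 bp at 7.03% in Sham. Brdt had 1147 bp at 9.48% in TAC and 1472 bp at 7.98% in Sham, beginning 40452 bp after the start in TAC and 40173 bp in Sham. These 3 positions were shared between the libraries and were chosen after their values were seen.

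By their median, the members covered in both libraries had more CpG sites than those covered in Sham alone, though the ranges overlapped. Over the 35 promoters the median was 18 CpGs per 300 bases, against 13 over all protein-coding genes, and the 17 promoters covered in both libraries had a median of 21 with a range of 10 to 38. The 6 covered in Sham alone had a median of 13 (11 to 17) and the 12 covered in neither a median of 14 (0 to 41). Members with 20 to 29 CpGs were covered in 10 of 11 in TAC and in the same number in Sham, with Smc1b as the exception. With 30 or more CpGs, 1 of 3 was covered in each library, Ddx4, while Stag3 and Ddx25 were not. With 15 to 19 CpGs, 5 of 9 were covered in TAC and 7 of 9 in Sham, and with 10 to 14 CpGs 1 of 8 in TAC and 5 of 8 in Sham. The last count includes Boll, whose CpGs were counted in the first-listed window while its Sham peak covered the second. None of the 4 members with fewer than 10 CpGs was covered, Mei1 among them, whose listed start lies inside the annotated gene. In all genes the shares were small in each class. They were 2.89% in TAC and 2.59% in Sham with 20 to 29 CpGs, and 5.90% in TAC and 6.20% in Sham with 10 to 14 CpGs.

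**Figure D4:**
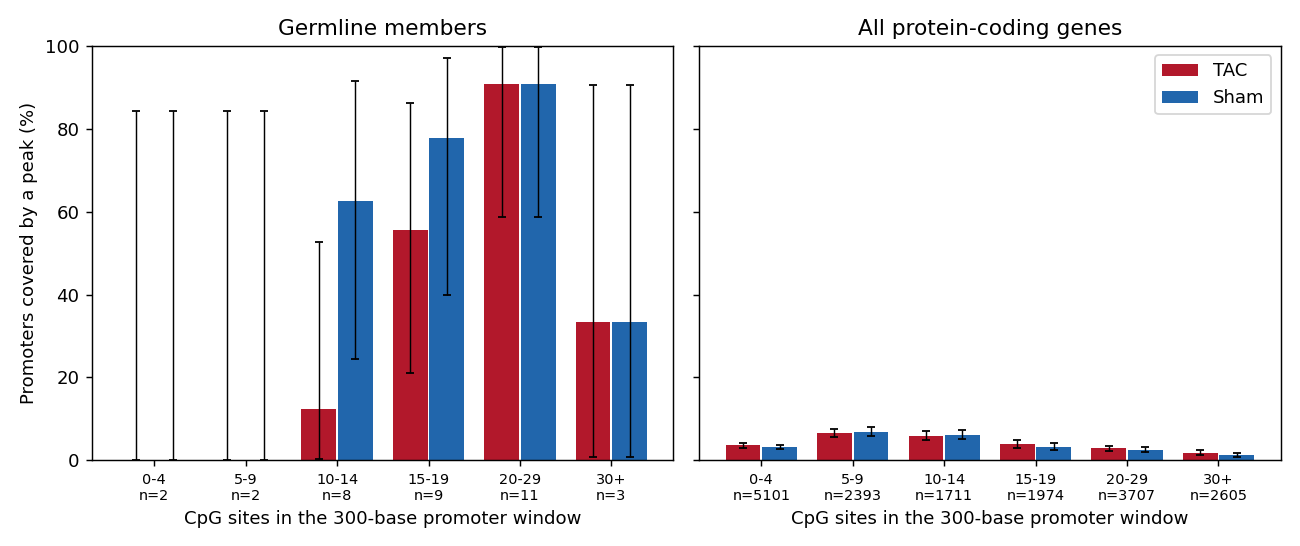
Percent of promoters covered by a peak (y axis, from 0) by the number of CpG sites in the 300-base window (x axis), for the germline members at left and all protein-coding genes at right, with TAC bars left of Sham bars and exact 95% binomial intervals as error bars. Members with 20 to 29 CpGs were covered in 90.9% in each library, against 2.89% in TAC and 2.59% in Sham over all genes of that class, and members with 30 or more in 33.3%.

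The E-box CACGTG, which reads the same on both strands, occurred in 18 of 35 member promoters (51.4%), against 7.90% of all protein-coding promoters of the same length. It was in 13 of the 17 promoters covered in both libraries, in 1 of 6 covered in Sham alone (Boll) and in 4 of 12 covered in neither. At Boll the motif is in the first-listed window, which no peak overlapped, and the Sham peak lay over the second. Of the sequences printed above, Sycp1 holds it once and Sycp3 at 2 places, as caCGtg, and Dazl, Tex19.1, Dpep3, Smc1b and Nanos2 have none. Member promoters with CACGTG were covered in 13 of 18 in TAC and 14 of 18 in Sham, Boll included, and those without in 4 of 17 in TAC and 9 of 17 in Sham. Over all genes, promoters with CACGTG were covered in 4.78% in TAC and 4.27% in Sham, and those without in 3.77% in TAC and 3.54% in Sham. The E2F-type motif TCCCGC, searched on both strands, occurred in 14 of 35 member promoters, against 25.7% of all, in 6 of the 17 covered in both and in 6 of the 12 covered in neither. Motifs and CpGs were counted in the first-listed promoter of a gene, and coverage over any listed promoter. These letters describe the windows, and binding was not measured. Each motif contains a CpG, so it is found more readily in CpG-rich windows, and sites of the 2 motifs can share at most 1 base.

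The other gene lists give a frame for these shares. Of 12 other piRNA pathway genes, 2 were covered over the promoter in TAC (16.7%, 2.09 to 48.4) and 3 in Sham (25.0%, 5.49 to 57.2). Tex14 and Tdrd12 were covered in both and Henmt1, which methylates the ends of piRNAs, in Sham alone. Of 20 other meiotic genes, 6 (interval 11.9 to 54.3%) were covered, and the same 6 in both libraries, namely Spata22, Syce3, Hsf2bp, Sycp2, Stra8 and Tex12. Tex12, a central element gene, had 905 bp at position 1.46% in TAC and 959 bp at 0.915% in Sham. Of 18 imprinted genes, whose promoters can be methylated on 1 parental copy, 8 (44.4%, 21.5 to 69.2) were covered in each library, with Peg3 and Usp29 under the same peak. None of 8 oocyte promoters was covered in either library, and of 13 late spermatid promoters 0 were covered in TAC and 2 in Sham, those of Tnp1 and Tnp2. Both lists had a median of fewer than 10 CpGs, below that of the germline list. No germline member with fewer than 10 CpGs was covered either. The oocyte and late spermatid counts therefore cannot separate the kind of gene from CpG content. None of 21 housekeeping promoters was covered in either library (interval 0 to 16.1%). Their median of 22 CpGs was above that of the germline list. Over all genes 3.85% were covered in TAC and 3.60% in Sham, and with 20 to 29 CpGs 2.89% and 2.59%. At such shares a list of this size can hold no covered promoter, so the counts of 0 show no contrast with genes at large. Intervals of the small lists are wide, and no difference between lists was tested. Both the members and the other lists were chosen with earlier results of these data known, which the intervals do not cover.

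**Figure D5:**
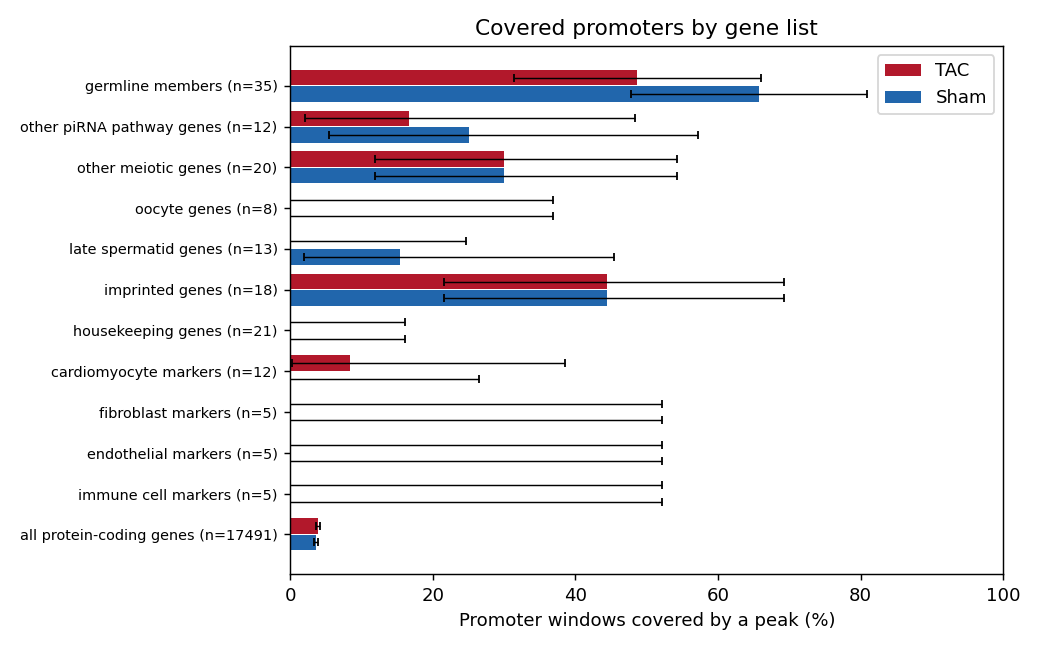
Percent of 300-base promoter windows covered by a peak (x axis, from 0) by gene list (y axis), with TAC bars above Sham bars and exact 95% binomial intervals as error bars. The germline list stands at 48.6% in TAC and 65.7% in Sham, imprinted genes at 44.4% in each, and housekeeping genes at 0. All protein-coding genes stand at 3.85% in TAC and 3.60% in Sham.

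Peaks cannot identify the cells by expression. Among markers of the labelled cell type, 1 of 12 cardiomyocyte promoters was covered in TAC (Actn2) and 0 in Sham. No promoter of 5 fibroblast, 5 endothelial and 5 immune cell markers was covered in either library. Over all genes the shares were 3.85% in TAC and 3.60% in Sham, so marker lists this small can hold no covered promoter. Each marker list also had a median of fewer than 10 CpGs. The marker counts therefore show no contrast between cell types or with genes at large. Whether the isolates differed in their content of other cells was not tested.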

How the data were processed

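MeDIP-seq was done on 1 TAC, 1 Sham and 1 Input library. The submitters' processing notes name the build mm10 and the tools HOMER 4.5, Picard and BWA 0.7.4-r385. HOMER's histone style was used per library against the input. It set peaks of 500 bp at least 1000 bp apart, with at least 4-fold over input and a Poisson p-value of 1e-04, per the file headers. Tag thresholds were 12 in TAC and 11 in Sham, per the file headers. The score that the authors deposited is 1 for every peak. The deposited lists give start and end positions of peaks, and widths and list positions were computed from them. The sources used here do not say how the rows were ordered.

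Genes and promoters came from the RefSeq tables of GRCm38.p6. Overlaps of at least 1 bp were computed with Python 3.11.15, numpy 2.4.6 and pandas 2.3.3, and exact Clopper-Pearson intervals at 95% with scipy 1.17.1. The overlap code was tested on simulated peaks. Depth enters through the tag totals, and intervals cover counting error only. No test of TAC against Sham was run, since each group has 1 library.

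The members and gene lists were chosen with earlier results of these data known. Named in full were members covered at an end in 1 library alone, those with the earliest or widest end peaks, those with the most peaks and those with none. The Input library was not analysed here beyond the authors' use of it. Alternatives were other end windows, the first 50% of rows, TAC held to the Sham number of peaks, body peaks by any overlap and a stricter definition of sharing.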

Additional observations from a re-analysis of the deposited data

How the results depend on the processing

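Alternatives for the promoter windows were chosen after seeing the data. Of 59 recomputed values, 55 stayed near the reported ones (counts within 1.5 times, ratios and shares within their counting interval). With 2 kb on either side of gene ends, 4 members were covered in Sham alone (7 as reported) and 3 in TAC alone, with Stag3 in and Nobox out. With the first 50% of rows, members held 57 TAC and 51 Sham peaks. Within 1 kb on either side of the promoter start, TAC alone covered 1 member (Nanos3) and Sham alone 7. With TAC held to the Sham number of peaks the ratio of member peaks was 0.914. Sham alone then covered the same 6 promoters. Shortening the TAC list could only add to those 6, so this setting is no check on them. With the first 50% of rows Sham alone also covered 6, with Piwil1 in and Piwil4 out. Depth limits the reading of narrow, late peaks, and an uncovered promoter is not an unmethylated one. No paired analysis was possible because each group has 1 library.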
